A study of Mus musculus with 12 samples.

Results

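Crushed mouse retina given vesicles was compared with crushed mouse retina given phosphate-buffered saline (PBS) over all genes, in 6 of the 12 libraries of the series. The 6 libraries are the columns of the retina count table, 3 in each group, and the other 6 belong to another cell type and were not used here. Both groups carry the labels WT, Retina cells and Day 1, and both had an optic nerve crush (ONC), in which the nerve behind the eye is squeezed so that the axons of retinal ganglion cells are injured. The control group received PBS, and the treated group received small extracellular vesicles (sEV) of mesenchymal stem cells (MSC), with the mark "i.o." that the labels do not spell out and that the PBS label lacks. No source used here gives the age, sex or strain of the mice. The retina columns carry short names only, and they were assigned to the groups by inference from those names, so the direction of every difference below rests on that reading. Whether each library is a separate animal is not stated, so a p-value measures the spread between these libraries, which may be technical. The strand setting of the counting is not stated, so reads of genes that overlap on opposite strands cannot be told apart. The design text of the series speaks of a C3H10T1/2 line that matches none of the samples.

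The retina is a sheet of photoreceptors, interneurons and ganglion cells, spanned by Müller glia and patrolled by microglia. After damage to the nerve, glia are known to change their metal handling, antioxidant defence and cytoskeleton, and leukocytes can enter through the vessels. Vesicles are small membrane-bound particles that cells release, and those of mesenchymal stem cells have been tried as a treatment of retinal injury. The comparison asked which mRNAs differed between the 2 treatments 1 day after the crush. The account below is of gene programmes other than cytokines, chemokines, interferon genes and markers of retinal cell types.

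Total counts per library ran from 15580024 to 16842926, and 3 counts in a library came to between 0.180 and 0.196 CPM, the count scaled to the size of the library. The retinal label was borne out by photoreceptor mRNA, with Gnat1, the transducin subunit of rods, at 19657, 17438 and 18526 CPM in the PBS libraries and 14076, 11995 and 13982 CPM in the vesicle libraries. Libraries differed in how much lens mRNA they held: a list of lens genes took 0.782%, 0.0910% and 0.0801% of counts in PBS libraries 1 to 3, and 2.16%, 8.23% and 0.0213% in vesicle libraries 1 to 3. The groups overlapped in lens mRNA, and the most lens-rich library of each group (PBS library 1 and vesicle library 2) was left out in 1 alternative, called the lens-rich pair below. That alternative did not even out lens mRNA, since 0.0910% and 0.0801% remained with PBS against 2.16% and 0.0213% with vesicles. The median log2 fold change of lens genes was 2.81 in it, against 2.70 with all 6 libraries. A call kept in it is therefore no check on lens tissue. Summed markers of scleral and choroidal fibroblasts (15 genes, each with counts in some library) ran from 57.6 to 94.8 CPM with PBS, and were at 231, 310.1 and 70.9 CPM with vesicles. Summed muscle markers ran from 25.0 to 32.5 CPM with PBS and from 30.1 to 169.8 CPM with vesicles, again lowest in vesicle library 3. Summed markers of pigment epithelium (1075 to 3074 CPM with PBS, 2292 to 4428 CPM with vesicles), of iris, ciliary body and cornea, and of oligodendrocytes overlapped between groups. Single pigment epithelium markers nevertheless leaned upward, with 17 of 18 estimates above 0 and a median log2 fold change of 1.09. Immune genes summed to 6499, 6065 and 6392 CPM with PBS and to 23124, 26172 and 15952 CPM with vesicles, without overlap. Vesicle library 3 stood nearest to the PBS libraries also in overall expression, at 25.8 on a first principal component on which the other vesicle libraries were at 58.2 and 72.5 and the PBS libraries ran from -65.7 to -41.1.

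**Figure D1:**
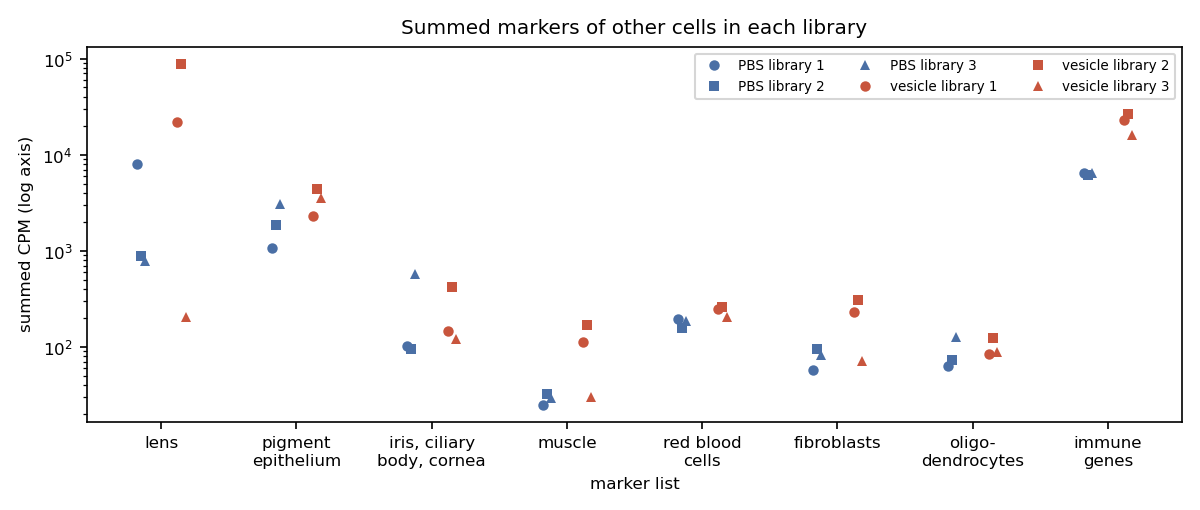
Summed CPM (log axis) of marker lists of other cells in each of the 6 libraries, with 1 point per library. Lens markers span 206 to 87661 CPM within the vesicle group alone, whereas the immune genes separate the groups.

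A gene was called changed when the adjusted p of edgeR's quasi-likelihood test was under 0.05 (Benjamini-Hochberg adjustment over all 15440 genes tested). Such calls were made for 15.9% of genes in either direction, for 10.7% as higher and for 5.19% as lower with vesicles. Calls depended on single libraries: 912 genes higher (5.91% of those tested) and 224 lower (1.45%) were called also in each of the 6 fits that left out 1 library, and such genes are said below to have kept their call. The number of calls was 2449 in all and fell to 1328 without PBS library 2, 1401 without vesicle library 1 and 1381 without vesicle library 2. In 2446 of the 2449 called genes the groups did not overlap, so a lack of overlap reported below adds nothing to a call. Fold changes are log2 values, vesicles minus PBS, with a standard error derived from the test statistic. Levels are in CPM, listed from library 1 to library 3. Since these are whole tissues, fewer cells of a type and less RNA per cell cannot be told apart. Most called genes, 1644 of 2449, lay in none of the gene lists used, 1012 higher and 632 lower. A total of 50 lists of functional programmes held 2204 tested genes, 297 of them called higher and 123 lower. These 420 calls were also moved by single libraries, with 181, 185 and 196 higher and 43, 55 and 40 lower without PBS library 2, vesicle library 1 and vesicle library 2.

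**Figure D2:**
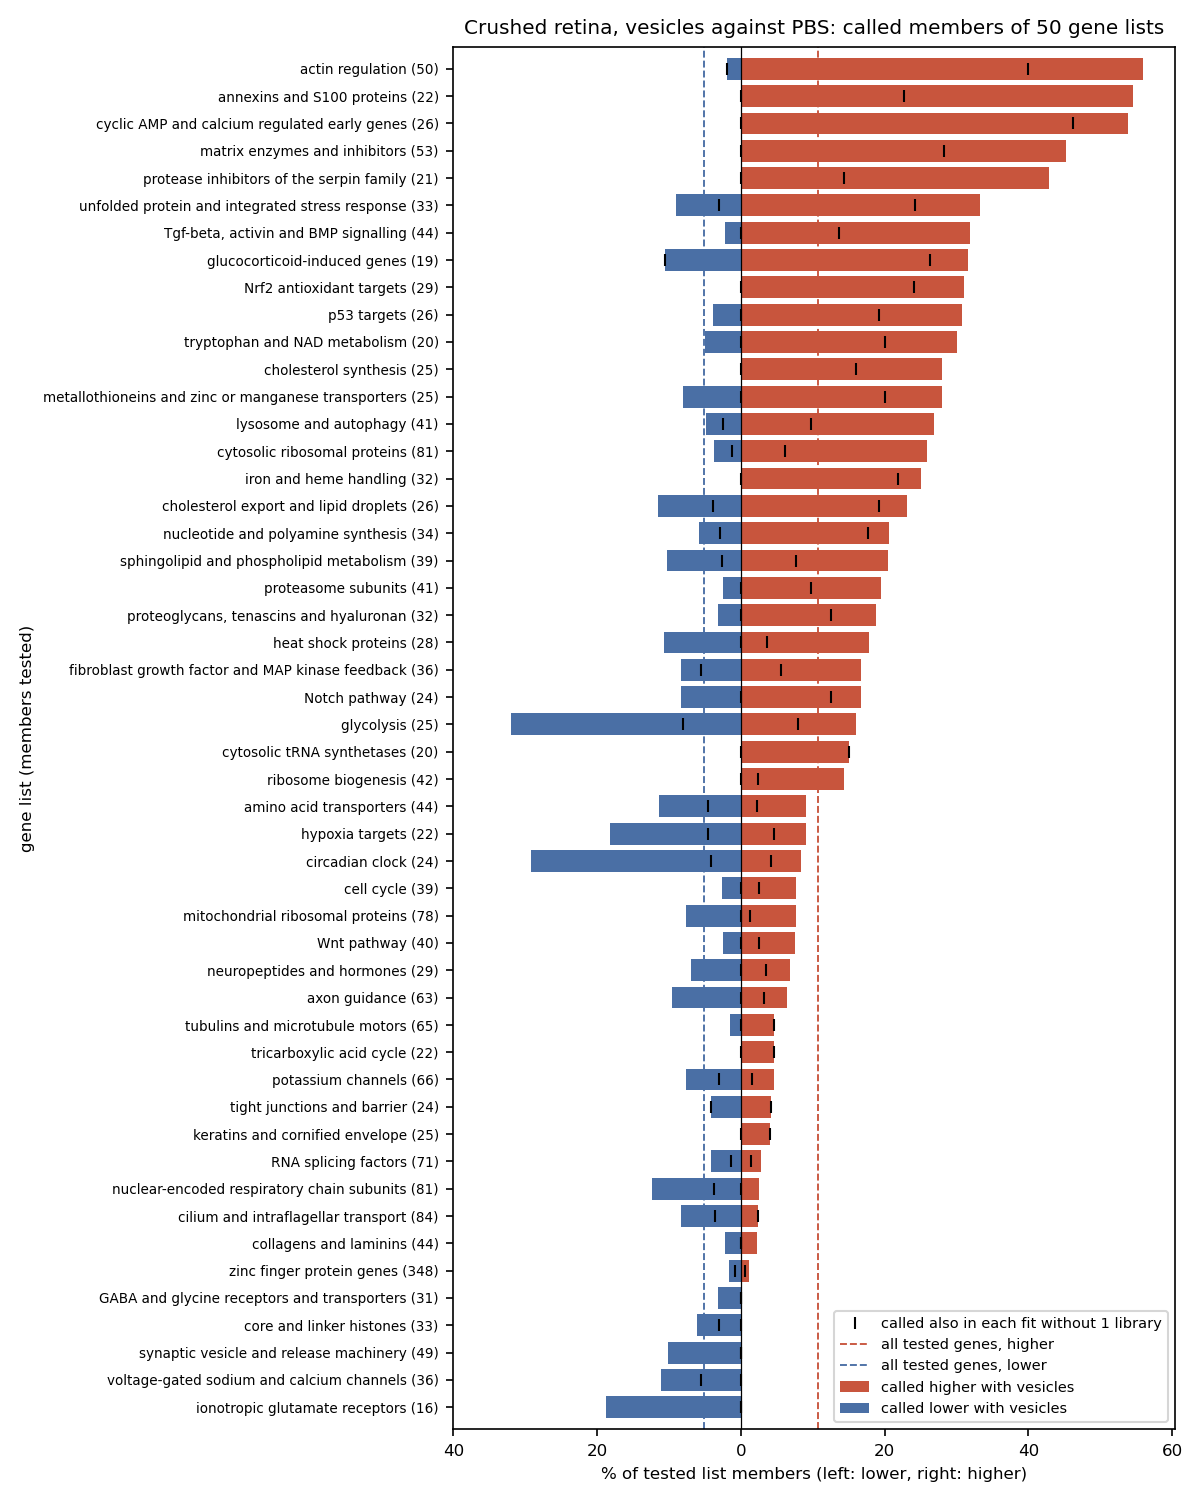
Share of tested members of 50 gene lists called higher (right) or lower (left) with vesicles, with the number tested in brackets. Ticks mark the share called also in each fit without 1 library, and dashed lines mark the 10.7% and 5.19% of all tested genes. Actin regulation, annexins and S100 proteins, and early genes reach furthest to the right, and glycolysis and the circadian clock furthest to the left.

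The metallothioneins Mt1 and Mt2 and several metal transporters were higher with vesicles. Metallothioneins are small cysteine-rich proteins that hold zinc and copper, and in the retina Mt1 and Mt2 are made mainly by glia. Of 25 tested metallothionein and zinc or manganese transporter genes, 7 were called higher (28.0%) and 2 lower, and 5 of those higher kept their call. Both lower calls were lost without the lens-rich pair and in each fit without 1 library except that without vesicle library 3. Mt1 was at 187, 216 and 321 CPM in the PBS libraries and 2094, 1899 and 1687 CPM in the vesicle libraries (log2 fold change 2.97 ± 0.21, adjusted p = 0.00014). Mt2 was at 10.8, 5.23 and 5.05 CPM in the PBS libraries and 58.5, 72.4 and 51.2 CPM in the vesicle libraries (log2 fold change 3.12 ± 0.32, adjusted p = 0.0016). Every vesicle library lay above every PBS library for both, and PBS library 3 was the highest of its group for Mt1 but not for Mt2. The zinc importer Slc39a1 was at 22.3, 22.1 and 21.4 CPM in the PBS libraries and 48.2, 70.7 and 39.8 CPM in the vesicle libraries (log2 fold change 1.27 ± 0.20, adjusted p = 0.0035). Slc39a10, another importer at the cell surface, rose from 68.3, 58.6 and 61.1 CPM to 110.5, 113 and 83.2 CPM (log2 fold change 0.71 ± 0.13, adjusted p = 0.0057). Slc30a9, a carrier of mitochondrial zinc, rose from 281, 223 and 229 CPM to 394, 404 and 350.3 CPM (log2 fold change 0.65 ± 0.11, adjusted p = 0.0048). Vesicle library 3 was the lowest of its group for all 3 transporters and still above each PBS library. Slc39a14, which imports zinc, iron and manganese, was called higher (log2 fold change 0.68 ± 0.19, adjusted p = 0.037), but its adjusted p ranged from 0.015 to 0.18 over 14 alternative settings and was 0.0902, 0.130, 0.0802 and 0.153 without PBS library 1, PBS library 2, vesicle library 1 and vesicle library 2, and 0.179 without the lens-rich pair. The median of this list, 0.11 (0.06 without PBS library 3 and 0.18 without PBS library 1 or the lens-rich pair), stood near that of all tested genes, -0.02.

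All called iron and heme genes were higher with vesicles. Of 32 tested, 8 were called higher (25.0%), 7 of them with a kept call, and the list median was 0.38, or 0.25 without the lens-rich pair. Cp encodes ceruloplasmin, the copper-bearing ferroxidase that lets iron leave cells. It was at 459, 335 and 289 CPM in the PBS libraries and 1557, 1671 and 1126 CPM in the vesicle libraries (log2 fold change 2.01 ± 0.21, adjusted p = 0.00096). Steap4 encodes a reductase of iron and copper, and it rose from 2.94, 2.43 and 5.11 CPM to 153, 179 and 90.7 CPM (log2 fold change 5.33 ± 0.41, adjusted p = 0.001). Slc11a1, an iron pump of phagosomes in macrophages and neutrophils, rose from 1.11, 0.547 and 1.68 CPM to 15.8, 19.3 and 11.4 CPM (log2 fold change 3.79 ± 0.37, adjusted p = 0.00033). All vesicle libraries lay above all PBS libraries for these 3 genes, and for each of them vesicle library 2 was highest and library 3 lowest. Fth1, the heavy chain of the iron store ferritin, was at 354, 358 and 506 CPM in the PBS libraries and 872, 1020.1 and 696 CPM in the vesicle libraries (log2 fold change 1.09 ± 0.18, adjusted p = 0.0054). Hp encodes haptoglobin, which binds free hemoglobin, and it rose from 0.522, 0.122 and 1.38 CPM to 54.9, 50.5 and 32.1 CPM (log2 fold change 6.06 ± 0.58, adjusted p = 0.0019). Without the lens-rich pair the adjusted p of Fth1 was 0.0526 and that of Hp 0.0538, within ranges of 4.4e-09 to 0.053 and 1.7e-12 to 0.054 over the 14 alternatives, and the number of iron and heme genes called higher was 5. The log2 fold change of Hp was 7.14 without PBS library 3. Lcn2, which binds the iron carriers of bacteria, belongs to this list as well and was at 74.5, 62.6 and 55.5 CPM in the PBS libraries and 2034, 2471 and 1614 CPM in the vesicle libraries (log2 fold change 4.99 ± 0.20, adjusted p = 2.1e-05). Summed red blood cell markers ran from 156 to 195 CPM with PBS and from 206 to 257 CPM with vesicles, without overlap, and their part in the iron and heme differences was not tested.

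The antioxidant genes under the transcription factor Nrf2 that were called were higher too. Nrf2 responds to oxidative stress and drives glutathione and thioredoxin enzymes, heme breakdown and cystine uptake. Of 29 tested, 9 were called higher (31.0%), 7 with a kept call, and the median of the list was 0.55. That median was 0.32 without PBS library 1, 0.31 without vesicle library 2 and 0.21 without the lens-rich pair, and 1 member was called lower in 5 of the 14 alternatives. Hmox1, which degrades heme, was at 11.1, 9.42 and 9.67 CPM in the PBS libraries and 43.4, 54.0 and 34.3 CPM in the vesicle libraries (log2 fold change 2.12 ± 0.18, adjusted p = 0.00012). Gsr, which regenerates glutathione, rose from 24.0, 26.1 and 28.1 CPM to 58.2, 77.9 and 48.8 CPM (log2 fold change 1.24 ± 0.17, adjusted p = 0.0015). Gclm, the modifier subunit of the enzyme that starts glutathione synthesis, rose from 17.8, 18.9 and 19.9 CPM to 34.6, 38.6 and 27.7 CPM (log2 fold change 0.83 ± 0.14, adjusted p = 0.0044). In each of the 3, the PBS libraries were close together and the vesicle libraries spread more widely, with library 2 highest and library 3 lowest. Osgin1, a small gene induced by oxidised lipid, rose from 1.11, 1.46 and 2.22 CPM to 6.498, 8.34 and 5.001 CPM (log2 fold change 2.04 ± 0.33, adjusted p = 0.0035). Prdx1, a peroxide-reducing enzyme, rose from 441, 383 and 468 CPM to 704, 726 and 573 CPM (log2 fold change 0.63 ± 0.12, adjusted p = 0.0076). Slc7a11 encodes the cystine importer that feeds glutathione synthesis, and it was at 1.89, 6.63 and 2.10 CPM in the PBS libraries and 101, 131 and 60.8 CPM in the vesicle libraries (log2 fold change 4.78 ± 0.63, adjusted p = 0.011). PBS library 2 stood above the other PBS libraries for Slc7a11. Without that library its log2 fold change was 5.61, and without the lens-rich pair its adjusted p was 0.0806, in a range of 7.0e-12 to 0.081 over the 14 alternatives. The rise of Txnrd1, thioredoxin reductase, was smaller (log2 fold change 1.05 ± 0.22, adjusted p = 0.017) and its adjusted p was 0.0627, 0.0760 and 0.0595 without PBS library 1, PBS library 2 and vesicle library 1, and 0.0980 without the lens-rich pair (range 1.5e-05 to 0.098).

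**Figure D3:**
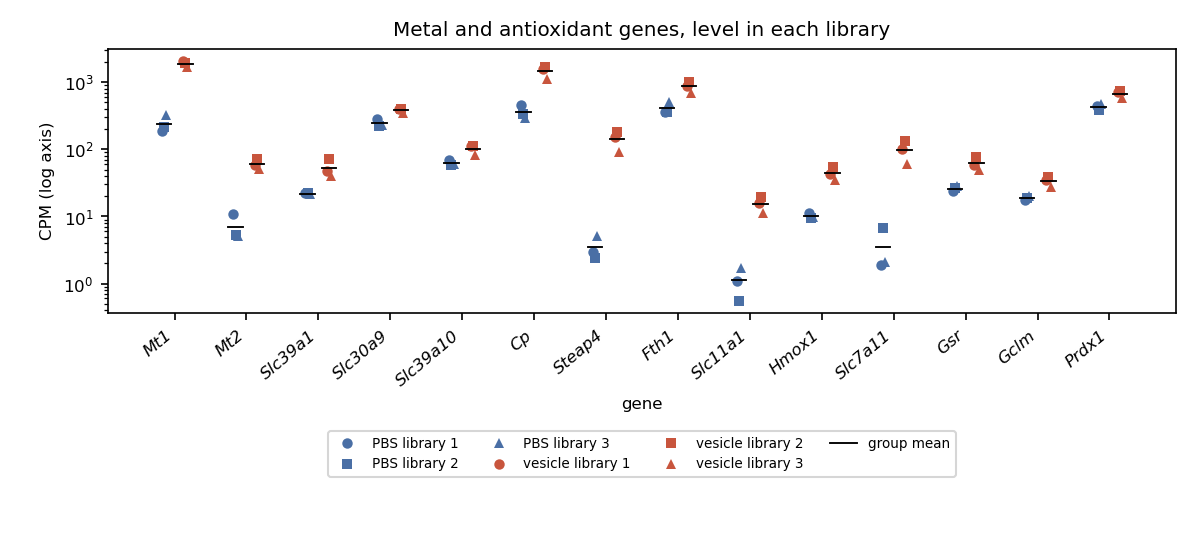
Level of 14 metal and antioxidant genes in each library (CPM, log axis), with 1 point per library and a bar at the group mean. Every vesicle library lies above every PBS library for each gene, and vesicle library 3 (triangle) is the lowest of its group for all of them.

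Many enzymes that cut or crosslink the extracellular matrix were called higher with vesicles. Of 53 tested matrix enzymes and inhibitors, 24 were called higher (45.3%) and 15 kept their call. Without PBS library 2, and likewise without the lens-rich pair, 15 were called higher. Timp1, the inhibitor of matrix metalloproteinases, was at 5.74, 5.78 and 4.27 CPM in the PBS libraries and 739.6, 581 and 333 CPM in the vesicle libraries (log2 fold change 6.71 ± 0.38, adjusted p = 0.00029). Mmp9, a gelatinase, rose from 8.62, 9.36 and 9.07 CPM to 25.8, 33.8 and 20.1 CPM (log2 fold change 1.56 ± 0.19, adjusted p = 0.00085). Mmp14, a membrane-anchored collagenase, rose from 3.66, 3.89 and 3.84 CPM to 12.4, 12.6 and 6.79 CPM (log2 fold change 1.48 ± 0.27, adjusted p = 0.0055). Timp1 had the largest log2 fold change among the 24 called members of this list, and its vesicle libraries spread by more than its PBS libraries. Mmp8, the collagenase stored in neutrophils, was at 0.326, 0.182 and 0.0601 CPM in the PBS libraries and 4.52, 6.26 and 2.72 CPM in the vesicle libraries (log2 fold change 4.53 ± 0.55, adjusted p = 0.00076, and a log2 fold change of 5.13 without PBS library 1). Adamts5, which cleaves aggrecan-type proteoglycans, rose from 24.3, 21.3 and 17.5 CPM to 64.5, 67.7 and 49.6 CPM (log2 fold change 1.52 ± 0.16, adjusted p = 0.00035). Lox, which crosslinks collagen, rose from 0.196, 0.547 and 0.360 CPM to 5.22, 12.6 and 5.99 CPM (log2 fold change 4.39 ± 0.49, adjusted p = 0.00054), with vesicle library 2 well above the other vesicle libraries and a log2 fold change of 3.62 without the lens-rich pair. Genes of the plasmin system were called higher too. Plaur, the receptor of urokinase, rose from 1.44, 0.426 and 1.86 CPM to 15.7, 23.8 and 17.9 CPM (log2 fold change 3.94 ± 0.42, adjusted p = 0.00092), and Plat, tissue plasminogen activator, rose from 6.92, 8.03 and 7.93 CPM to 28.0, 34.1 and 18.0 CPM (log2 fold change 1.80 ± 0.23, adjusted p = 0.0011). In vesicle library 2 both plasmin genes were at their highest level.

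The count for the structural collagens and laminins depended on the fit. Of 44 tested, 1 was called higher and 1 lower, their median log2 fold change was 0.45 and 31 of 44 estimates were above 0. The count higher was 12 without vesicle library 3, 9 with DESeq2 and 3 with the replicate number as a block, and the median was 0.23 without vesicle library 2. The gene called higher, Lamc1 of laminin, lost its call in 5 of the 6 fits without 1 library, all but the one without vesicle library 3 (range over the 14 alternatives 0.0059 to 0.18). The gene called lower was Col9a1, a collagen of vitreous and cartilage, at 21.7, 46.6 and 31.7 CPM in the PBS libraries and 7.52, 9.29 and 13.8 CPM in the vesicle libraries (log2 fold change -1.71 ± 0.34, adjusted p = 0.017). Its call was lost without vesicle library 1 (adjusted p = 0.0594), vesicle library 2 (adjusted p = 0.0791) or the lens-rich pair (adjusted p = 0.0561), in a range of 2.0e-08 to 0.079. Summed fibroblast markers were higher in vesicle libraries 1 and 2 (231 and 310.1 CPM) than in any PBS library, and their part in the matrix differences was not tested. Among 32 proteoglycan, tenascin and hyaluronan genes 6 were called higher and 1 lower, with 2 higher without the lens-rich pair. Srgn, the proteoglycan of leukocyte granules, rose from 14.8, 6.81 and 14.2 CPM to 449, 487 and 277 CPM (log2 fold change 5.09 ± 0.41, adjusted p = 0.0014). Vcan, a large hyaluronan-binding proteoglycan, rose from 2.35, 5.84 and 3.42 CPM to 22.7, 22.3 and 12.2 CPM (log2 fold change 2.29 ± 0.37, adjusted p = 0.0058). Tnc, tenascin C, a matrix protein of injured tissue, rose from 6.005, 8.33 and 6.31 CPM to 11.9, 13.3 and 14.7 CPM (log2 fold change 0.95 ± 0.19, adjusted p = 0.0092). Tnc lost its call without the lens-rich pair (adjusted p = 0.0587, range 0.00049 to 0.059), while Srgn and Vcan did not.

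Slpi, Wfdc17 and Cstdc4 were among the largest rises outside the lists. Slpi, an inhibitor of neutrophil elastase, was at 0.326, 0.365 and 0.901 CPM in the PBS libraries and 26.9, 22.0 and 17.3 CPM in the vesicle libraries (log2 fold change 5.35 ± 0.35, adjusted p = 5.8e-05). Wfdc17, a relative in the same protein family, rose from 1.11, 0.486 and 1.56 CPM to 86.2, 113 and 39.6 CPM (log2 fold change 6.23 ± 0.62, adjusted p = 0.0035). Cstdc4, of the stefin group of cysteine protease inhibitors, rose from 0.0653, 0.0608 and 0.180 CPM to 19.8, 26.7 and 11.4 CPM (log2 fold change 7.44 ± 0.50, adjusted p = 8.3e-05). All vesicle libraries were far above all PBS libraries for these genes, with PBS library 3 the highest of its group for each. Of the 3 genes, only Cstdc4 had no more than 3 counts in every PBS library. Without PBS library 3 the log2 fold changes of Slpi and Cstdc4 were 5.96 and 8.09. Wfdc21, with 3 counts in all PBS libraries together and 555 in all vesicle libraries, had a CPM ratio of 188 with a 95% exact counting interval of 63.9 to 913 (adjusted p = 0.0003). The interval covers counting error only. The mouse stefin genes are near-identical copies of each other, so the share of reads given to Cstdc4 is uncertain. The serpin family of protease inhibitors had 9 of 21 tested members called higher, 3 of them with a kept call. That count was 3 without PBS library 1, 5 without PBS library 2, 4 without vesicle library 1, 5 without vesicle library 2 and 3 without the lens-rich pair. Serpina3m had no counts with PBS and 74 with vesicles, so it was at least 25.0-fold higher, against 3 counts over the PBS group as the floor. Its neighbours in the Serpina3 cluster are copies of each other, which makes their single values uncertain. Immune genes summed to 6065 to 6499 CPM with PBS and to 15952 to 26172 CPM with vesicles, and their part in these rises was not tested.

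Many genes that regulate the actin cytoskeleton were called higher with vesicles. Actin regulators polymerise, cap, bundle and pull on filaments, and they are abundant in leukocytes and in reactive glia. Of 50 tested, 28 were called higher (56.0%), 20 with a kept call, and 1 lower, and the median log2 fold change was 1.23. Lcp1, a bundling protein of leukocytes, was at 8.16, 3.95 and 6.67 CPM in the PBS libraries and 94.7, 92.5 and 59.9 CPM in the vesicle libraries (log2 fold change 3.72 ± 0.31, adjusted p = 0.00069). Coro1a, a coronin of leukocytes, rose from 16.2, 18.5 and 22.0 CPM to 62.6, 61.2 and 43.7 CPM (log2 fold change 1.56 ± 0.17, adjusted p = 0.00047). Both lay without overlap between groups, and vesicle library 3 was the lowest vesicle library for each. Genes that most cells use rose as well. Actb, cytoplasmic beta-actin, rose from 399, 422 and 517 CPM to 882, 1187 and 735 CPM (log2 fold change 1.07 ± 0.18, adjusted p = 0.0057). Flna, which crosslinks filaments, rose from 20.8, 17.6 and 24.6 CPM to 57.8, 77.7 and 40.01 CPM (log2 fold change 1.48 ± 0.25, adjusted p = 0.0077). Myh9, nonmuscle myosin, rose from 10.97, 14.3 and 17.5 CPM to 36.4, 42.3 and 27.4 CPM (log2 fold change 1.31 ± 0.21, adjusted p = 0.0038). For these 3 the lowest vesicle library was again library 3, and the highest PBS library was library 3 of that group. Tmsb4x, which holds actin monomers in reserve, rose from 741, 527 and 709.5 CPM to 1717, 1793 and 1395 CPM (log2 fold change 1.31 ± 0.15, adjusted p = 0.00065). Its close relative Tmsb10 went the other way, from 263, 307 and 209.9 CPM to 141, 112 and 111 CPM (log2 fold change -1.10 ± 0.15, adjusted p = 0.002), and was the only actin gene called lower. Without the lens-rich pair the adjusted p of Tmsb10 was 0.0603, in a range of 1.2e-10 to 0.06 over the 14 alternatives.

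Annexins and S100 proteins, which bind calcium and membranes, had 12 of 22 members called higher (54.5%) and a median of 1.17. Of these calls 5 were kept in every fit without 1 library, and the count was 7 without PBS library 1, 7 without PBS library 2 and 6 without vesicle library 1. S100a10, which carries annexin 2 to the membrane, was at 112, 84.0 and 105 CPM in the PBS libraries and 336, 355 and 261 CPM in the vesicle libraries (log2 fold change 1.66 ± 0.15, adjusted p = 0.00018). S100a16 rose from 81.1, 68.3 and 64.6 CPM to 180.0, 183 and 140.1 CPM (log2 fold change 1.23 ± 0.13, adjusted p = 0.00039), and S100a13 rose from 13.8, 12.2 and 15.8 CPM to 41.7, 43.3 and 27.4 CPM (log2 fold change 1.43 ± 0.19, adjusted p = 0.0014). S100a8, which neutrophils hold in large amounts, rose from 2.68, 1.52 and 3.48 CPM to 202, 262 and 117 CPM (log2 fold change 6.24 ± 0.47, adjusted p = 0.0012). The neutrophil gene thus differed by several log2 units and the widely expressed members by between 1 and 2. Tubulins and motors, in contrast, had 3 of 65 called higher, a share below that of all genes. Those were Tubb2b (from 48.8, 37.6 and 35.4 CPM to 123, 129 and 90.0 CPM, log2 fold change 1.49 ± 0.17, adjusted p = 0.00086), the neuronal and glial beta-tubulin, Tubb6 (from 5.61, 4.38 and 5.29 CPM to 52.3, 83.6 and 29.2 CPM, log2 fold change 3.43 ± 0.42, adjusted p = 0.0043) and Kif14 (log2 fold change 1.56), and each kept its call. Vesicle library 2 was highest and library 3 lowest for both tubulins.

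**Figure D4:**
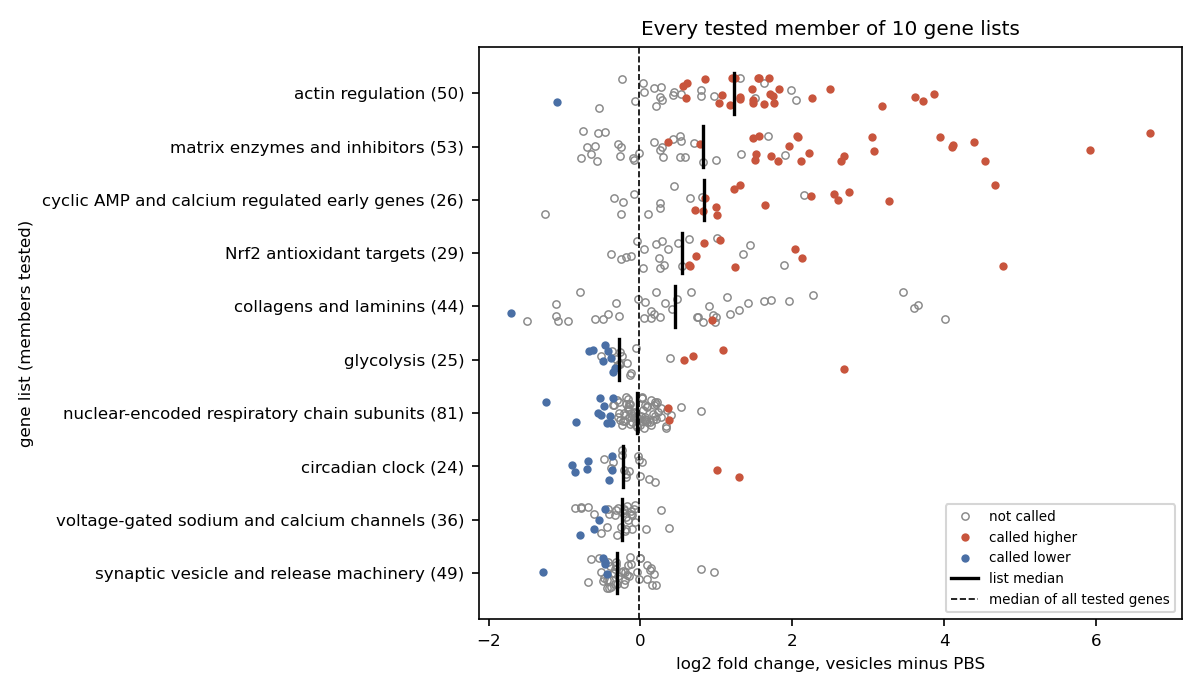
Log2 fold change of every tested member of 10 gene lists, with called members filled, the list median as a bar and the median of all tested genes (-0.02) as a dashed line. Actin, matrix-enzyme and early genes lie mostly to the right, collagens are wide with 2 calls in this fit, and channel and synaptic genes sit close to and left of the line.

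In energy metabolism, glycolytic genes were called in both directions, and the falls were small. The retina, and its photoreceptors above all, makes much lactate from glucose in the presence of oxygen. Of 25 tested glycolytic genes, 8 were called lower (32.0%) and 4 higher, the median was -0.28, and 20 of 25 estimates were below 0. Those called lower were 7 enzymes and the lactate carrier Slc16a3. Aldoa, aldolase, was at 4189, 4525 and 3904 CPM in the PBS libraries and 2619, 2509 and 3041 CPM in the vesicle libraries (log2 fold change -0.63 ± 0.11, adjusted p = 0.0046). Pgk1, phosphoglycerate kinase, fell from 2179, 1760.3 and 1556 CPM to 1153, 1052 and 1242 CPM (log2 fold change -0.67 ± 0.13, adjusted p = 0.0088). Gapdh fell from 10571, 10708 and 8902 CPM to 7514, 6473 and 7456 CPM (log2 fold change -0.49 ± 0.11, adjusted p = 0.014). In all 3 genes each vesicle library was below each PBS library. Aldoa and Pgk1 kept their calls, and Gapdh lost it without PBS library 2 (adjusted p = 0.0694) or the lens-rich pair (adjusted p = 0.0719, range 0.00033 to 0.072). Gapdh is used as a reference gene in many assays, and here the groups did not overlap. The remaining members called lower were Hk2, Eno1, Slc16a3, Ldha and Pkm, with log2 fold changes from -0.47 to -0.33, and each of them lost its call in at least 1 of the fits without 1 library. The count of 8 was 2 without PBS library 2 and 4 without vesicle library 1 or vesicle library 2, and 5 without the lens-rich pair.

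The glycolytic genes that rose encode regulators and other isoforms. Pfkfb3, which makes the activator of phosphofructokinase, rose from 12.99, 13.7 and 13.8 CPM to 33.4, 28.3 and 24.5 CPM (log2 fold change 1.09 ± 0.14, adjusted p = 0.0012). Hk3, the hexokinase of leukocytes, rose from 0.849, 0.365 and 0.901 CPM to 5.61, 5.18 and 2.90 CPM (log2 fold change 2.68 ± 0.42, adjusted p = 0.0029). Both kept their calls, and Hk1 and Pfkfb4, called higher as well, did not, so that 2 were called higher without PBS library 2, vesicle library 1, vesicle library 2 or the lens-rich pair. Of 81 respiratory chain subunits encoded in the nucleus, 10 were called lower (12.3%) and 2 higher, with a median of -0.05, or -0.03 without vesicle library 2. The 3 that kept their call were Ndufv1 (from 178, 169 and 141 CPM to 114, 109 and 106 CPM, log2 fold change -0.57 ± 0.10, adjusted p = 0.0062) and Ndufb10 (from 163, 173 and 146 CPM to 119.6, 111 and 113 CPM, log2 fold change -0.49 ± 0.09, adjusted p = 0.0079) of the first complex and Atp5g3 (from 200.1, 223 and 208 CPM to 162, 144 and 134 CPM, log2 fold change -0.52 ± 0.10, adjusted p = 0.0077) of the ATP synthase. The count lower was 4 without PBS library 2, 4 without vesicle library 2, 6 without vesicle library 3 and 4 without the lens-rich pair. The rod gene Gnat1 was lower as well (log2 fold change -0.47 ± 0.10, adjusted p = 0.01) and kept its call, and the part of rod mRNA in the calls of glycolysis and respiration was not tested. Of 22 genes of the tricarboxylic acid cycle and its branches, 1 was called, Acod1, which makes itaconate in activated macrophages. It was at 1.44, 0.365 and 1.80 CPM in the PBS libraries and 74.1, 52.7 and 47.8 CPM in the vesicle libraries (log2 fold change 5.59 ± 0.45, adjusted p = 0.00089). Hypoxia targets were called in both directions, with 2 of 22 higher (9.09%) and 4 lower (18.2%), and 1 kept each way. The count lower was 1 without vesicle library 1, vesicle library 2 or the lens-rich pair. Angptl4, an inhibitor of lipoprotein lipase, rose from 1.83, 2.13 and 2.28 CPM to 33.8, 55.4 and 20.3 CPM (log2 fold change 4.12 ± 0.41, adjusted p = 0.0014), whereas Ak4, a mitochondrial adenylate kinase, fell from 42.8, 47.2 and 43.5 CPM to 30.6, 27.4 and 30.9 CPM (log2 fold change -0.59 ± 0.11, adjusted p = 0.0054).

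Small-molecule pathways linked to tryptophan, NAD, nucleotides and polyamines were partly higher. The kynurenine pathway turns tryptophan into NAD, and CD38 consumes NAD. Of 20 tested, 6 were called higher (30.0%) and 1 lower, with 4 kept. Kmo, the enzyme that oxidises kynurenine, was at 0.131, 0.122 and 0.0601 CPM in the PBS libraries and 1.72, 1.26 and 1.98 CPM in the vesicle libraries (log2 fold change 3.90 ± 0.52, adjusted p = 0.0013). Cd38 rose from 0.783, 0.973 and 0.721 CPM to 3.82, 3.16 and 3.95 CPM (log2 fold change 2.13 ± 0.32, adjusted p = 0.0021). Nadk, which makes NADP, rose from 43.7, 39.7 and 44.7 CPM to 72.8, 72.5 and 60.4 CPM (log2 fold change 0.68 ± 0.11, adjusted p = 0.0029). For Kmo and Cd38 vesicle library 3 was the highest of its group. Nnmt, which methylates nicotinamide, had 1 count in all PBS libraries together and 49 in all vesicle libraries, giving a CPM ratio of 49.7 with a 95% exact counting interval of 8.51 to 2003 (adjusted p = 0.004). Among 34 nucleotide and polyamine genes 7 were called higher and 2 lower, with 6 and 1 kept. Odc1, the enzyme that starts polyamine synthesis, rose from 227, 197 and 218 CPM to 363, 394 and 283 CPM (log2 fold change 0.70 ± 0.13, adjusted p = 0.006). Oaz1, the antizyme that removes it, fell from 855, 759.9 and 636 CPM to 513, 487 and 467 CPM (log2 fold change -0.62 ± 0.12, adjusted p = 0.0077). Smox, which oxidises spermine, rose from 3.33, 5.72 and 7.27 CPM to 19.6, 22.8 and 13.8 CPM (log2 fold change 1.78 ± 0.30, adjusted p = 0.0048). The synthetic enzyme and its antizyme thus differed in opposite directions, each without overlap between groups. Ctps, which makes CTP, rose from 25.1, 21.8 and 19.1 CPM to 48.0, 58.6 and 41.6 CPM (log2 fold change 1.17 ± 0.15, adjusted p = 0.0012), and Uck2, which salvages uridine and cytidine, rose from 9.33, 12.3 and 10.9 CPM to 21.2, 18.5 and 18.3 CPM (log2 fold change 0.83 ± 0.15, adjusted p = 0.0062).

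The called genes of sterol synthesis were all higher with vesicles. Cholesterol synthesis had 7 of 25 tested genes called higher (28.0%), with 4 kept and a median of 0.10. The median was -0.07 without PBS library 1, where 1 gene was called lower, 0.01 without vesicle library 1, 0.18 without PBS library 2, 0.20 without PBS library 3, 0.17 without vesicle library 3 and 0.03 without the lens-rich pair, where 1 gene was called lower as well. Msmo1 was at 218, 215 and 225 CPM in the PBS libraries and 369.9, 369.7 and 315 CPM in the vesicle libraries (log2 fold change 0.68 ± 0.10, adjusted p = 0.0017). Sc5d rose from 55.4, 61.3 and 54.1 CPM to 86.1, 92.2 and 82.4 CPM (log2 fold change 0.61 ± 0.09, adjusted p = 0.0026), and Cyp51 rose from 101, 94.97 and 92.8 CPM to 148, 153 and 132 CPM (log2 fold change 0.58 ± 0.09, adjusted p = 0.0032). All 3 act late in the pathway, after the sterol ring has formed. Without PBS library 2, PBS library 3, vesicle library 1 or vesicle library 2 the count was 4 each time, and it was 3 without the lens-rich pair. Of 26 genes of cholesterol export and lipid droplets, 6 were called higher and 3 lower, and 1 lower in every fit without a PBS library other than library 1, without vesicle library 1 or 2, or without the lens-rich pair. Ch25h, which makes an oxysterol of macrophages, rose from 0.261, 0.669 and 0.481 CPM to 8.15, 14.4 and 6.36 CPM (log2 fold change 4.33 ± 0.44, adjusted p = 0.00032), with a log2 fold change of 3.65 without the lens-rich pair. Plin2, a coat protein of lipid droplets, rose from 19.6, 14.6 and 21.0 CPM to 36.5, 49.4 and 39.0 CPM (log2 fold change 1.18 ± 0.17, adjusted p = 0.0019). G0s2, which blocks droplet lipolysis, rose from 3.39, 3.10 and 4.99 CPM to 30.6, 54.2 and 36.8 CPM (log2 fold change 3.401 ± 0.27, adjusted p = 0.0002), while Hilpda, which also blocks it, fell from 55.6, 58.6 and 52.0 CPM to 36.2, 31.8 and 39.5 CPM (log2 fold change -0.63 ± 0.11, adjusted p = 0.0051). The 2 lipase inhibitors thus differed in opposite directions. Soat2, which esterifies cholesterol for storage, had no counts with PBS and 84 with vesicles, at least 28.4-fold higher against 3 counts over the PBS group. Of 39 sphingolipid and phospholipid genes 8 were called higher and 4 lower, with 5 higher and 1 lower without PBS library 2, vesicle library 1 or vesicle library 2, 2 lower without PBS library 3, and 4 higher and 2 lower without the lens-rich pair. Sptlc2, part of the enzyme that starts sphingolipid synthesis, rose from 45.0, 44.1 and 39.0 CPM to 67.8, 72.1 and 65.4 CPM (log2 fold change 0.68 ± 0.10, adjusted p = 0.0019). Cers4, a ceramide synthase, fell from 92.2, 93.4 and 89.4 CPM to 62.2, 58.5 and 65.1 CPM (log2 fold change -0.57 ± 0.09, adjusted p = 0.0024).

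Called genes of protein synthesis and folding differed by small amounts. Of 81 cytosolic ribosomal proteins, 21 were called higher (25.9%) and 3 lower, the median was 0.25, and 73 of 81 estimates were above 0. The count called higher was 7 without PBS library 2, 7 without vesicle library 1 and 9 without vesicle library 2, and 5 genes kept their call in every fit. It was 13 with upper-quartile scaling and 34 with DESeq2, and the count lower was 1 without PBS library 2, vesicle library 2 or the lens-rich pair. Rps27l, a relative that p53 induces, rose from 45.6, 49.1 and 54.1 CPM to 97.7, 114 and 88.6 CPM (log2 fold change 1.01 ± 0.12, adjusted p = 0.0006). Rps12 rose from 632, 633 and 735 CPM to 996, 1148 and 1048 CPM (log2 fold change 0.67 ± 0.11, adjusted p = 0.0028), and Rps26 rose from 379, 472 and 536 CPM to 793, 957 and 879.8 CPM (log2 fold change 0.92 ± 0.14, adjusted p = 0.0022). Rpl23a fell from 439, 419 and 336 CPM to 246, 175 and 179 CPM (log2 fold change -0.99 ± 0.16, adjusted p = 0.0034). Ribosomal protein genes have many processed copies in the genome, which can share reads with them, so single members are uncertain. Of 20 cytosolic tRNA synthetases the 3 called higher all kept their call. Tars rose from 71.7, 63.4 and 65.7 CPM to 159.8, 153 and 115 CPM (log2 fold change 1.09 ± 0.13, adjusted p = 0.00073), and Aars (log2 fold change 0.57) and Gars (log2 fold change 0.50) rose less. Of 42 genes of ribosome biogenesis 6 were called higher, but 1 without PBS library 2, vesicle library 1 or vesicle library 2 and 10 without PBS library 1. Of 78 mitochondrial ribosomal proteins 6 were called in each direction, and Mrps25 kept its call.

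The unfolded protein response raises chaperones of the endoplasmic reticulum when secretory load is high. Of 33 tested genes of this and the integrated stress response, 11 were called higher (33.3%) and 3 lower, with 8 and 1 kept, and 1 lower without PBS library 1, PBS library 2, vesicle library 2 or the lens-rich pair. Hspa5, the main chaperone, was at 624, 489 and 484 CPM in the PBS libraries and 887, 910.5 and 756 CPM in the vesicle libraries (log2 fold change 0.68 ± 0.13, adjusted p = 0.007). Manf, a secreted factor that protects neurons and is bound by that chaperone, rose from 104, 90.4 and 101 CPM to 159, 168 and 143 CPM (log2 fold change 0.67 ± 0.10, adjusted p = 0.0022). Sdf2l1, another luminal protein, rose from 5.61, 5.72 and 7.09 CPM to 12.4, 16.9 and 12.5 CPM (log2 fold change 1.18 ± 0.20, adjusted p = 0.004). The groups did not overlap for any of the 3, and PBS library 1 was the highest of its group for the first 2. Xbp1, the transcription factor of the response, rose from 125, 115 and 99.7 CPM to 184, 183 and 151 CPM (log2 fold change 0.61 ± 0.12, adjusted p = 0.0076). Ddit4, an inhibitor of mTOR signalling that stress induces, fell from 88.5, 117 and 96.8 CPM to 64.2, 55.3 and 66.1 CPM (log2 fold change -0.70 ± 0.12, adjusted p = 0.0046). The heat shock proteins of the cytosol gave 5 called higher and 3 lower of 28, and 1 of these, Dnajb1, kept its call. The count was 1 higher without PBS library 2, vesicle library 1 or vesicle library 2, and at most 1 lower in each fit except that without PBS library 1. Dnajb1, a partner of cytosolic Hsp70, rose from 42.2, 45.9 and 48.1 CPM to 81.0, 78.8 and 59.8 CPM (log2 fold change 0.69 ± 0.13, adjusted p = 0.0062), and its adjusted p without the lens-rich pair was 0.0526 (range 9.2e-05 to 0.053).

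The proteasome calls kept in every fit belonged to 1 form of the complex. The immunoproteasome replaces the catalytic subunits in cells exposed to interferon, and the PA28 cap (Psme1 and Psme2) opens it. Of 41 proteasome genes, 8 were called higher and 1 lower. The 4 that kept their call were all of that form. Psmb8 was at 4.37, 2.98 and 3.36 CPM in the PBS libraries and 13.2, 12.3 and 9.14 CPM in the vesicle libraries (log2 fold change 1.69 ± 0.24, adjusted p = 0.0016). Psmb10 rose from 24.9, 24.1 and 22.6 CPM to 38.9, 39.3 and 34.9 CPM (log2 fold change 0.66 ± 0.11, adjusted p = 0.0039), Psme1 rose from 62.2, 62.6 and 49.1 CPM to 89.4, 104 and 78.1 CPM (log2 fold change 0.64 ± 0.13, adjusted p = 0.011), and Psme2 rose from 41.3, 39.8 and 36.2 CPM to 68.7, 70.5 and 50.3 CPM (log2 fold change 0.69 ± 0.14, adjusted p = 0.0086). The count called higher was 5 without PBS library 2, 4 without vesicle library 1, 5 without vesicle library 2 and 5 without the lens-rich pair. The lysosome had 11 of 41 genes called higher (26.8%) and 2 lower, and 4 higher calls were kept. Lamp2, a membrane protein of lysosomes, rose from 211, 162 and 173 CPM to 526, 558 and 345 CPM (log2 fold change 1.39 ± 0.19, adjusted p = 0.0026). Ctsc, which activates the serine proteases of granules, rose from 44.1, 33.9 and 38.6 CPM to 147, 177 and 124 CPM (log2 fold change 1.94 ± 0.15, adjusted p = 0.00012), and Ctsz rose from 29.2, 32.1 and 35.1 CPM to 56.4, 60.9 and 45.5 CPM (log2 fold change 0.76 ± 0.13, adjusted p = 0.0046). Without PBS library 2, vesicle library 1, vesicle library 2 and the lens-rich pair the number of lysosomal genes called higher was 5, 5, 6 and 5.

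Early response genes are transcribed soon after a stimulus, and all that were called were higher with vesicles 1 day after the crush. Of 26 tested, 14 were called higher (53.8%), 12 of these kept their call, and the list median was 0.84. Atf3, a stress-induced repressor that also marks injured ganglion cells, was at 9.79, 9.12 and 7.45 CPM in the PBS libraries and 56.3, 57.7 and 39.9 CPM in the vesicle libraries (log2 fold change 2.54 ± 0.18, adjusted p = 5.9e-05). Junb, of the AP-1 family, rose from 20.8, 18.4 and 25.4 CPM to 159, 140.2 and 94.2 CPM (log2 fold change 2.60 ± 0.22, adjusted p = 0.0004). Maff, a small partner of AP-1 and Nrf2 proteins, rose from 1.11, 1.22 and 1.502 CPM to 13.4, 14.98 and 8.83 CPM (log2 fold change 3.27 ± 0.28, adjusted p = 0.00013). Every vesicle library was more than 3-fold above every PBS library in these 3. Crem, a target of cyclic AMP, rose from 37.3, 29.5 and 30.6 CPM to 68.3, 65.0 and 63.2 CPM (log2 fold change 1.01 ± 0.11, adjusted p = 0.00054). Ier3, an apoptosis modulator, rose from 82.6, 79.0 and 76.0 CPM to 158, 165 and 152 CPM (log2 fold change 0.996 ± 0.09, adjusted p = 0.00014). Bdnf, a growth factor that supports ganglion cells, rose from 11.6, 15.2 and 11.6 CPM to 22.2, 25.1 and 20.3 CPM (log2 fold change 0.82 ± 0.16, adjusted p = 0.0076), and its call was lost without the lens-rich pair (adjusted p = 0.0592, range 0.00031 to 0.059). Crem and Ier3 had a narrow spread in both groups. Targets of p53 were higher in 8 of 26 cases and lower in 1. Fas, the death receptor, rose from 2.15, 1.22 and 1.26 CPM to 48.4, 44.5 and 29.6 CPM (log2 fold change 4.73 ± 0.28, adjusted p = 5.8e-05). Cdkn1a, the cell cycle inhibitor p21, rose from 2.61, 2.13 and 4.57 CPM to 10.7, 12.3 and 8.89 CPM (log2 fold change 1.77 ± 0.30, adjusted p = 0.0041). Plk3, a stress kinase, rose from 1.31, 1.95 and 1.74 CPM to 4.59, 4.80 and 6.24 CPM (log2 fold change 1.64 ± 0.29, adjusted p = 0.0046). The count of p53 targets called higher was 5 without PBS library 1, PBS library 2, vesicle library 1, vesicle library 2 or the lens-rich pair and with upper-quartile scaling, and 5 kept their call. Of 39 cell cycle genes 3 were called higher and 1 lower, and of these Ccnd3, a cyclin of the first gap phase (from 31.7, 37.5 and 42.4 CPM to 63.4, 66.4 and 52.3 CPM, log2 fold change 0.71 ± 0.14, adjusted p = 0.0074), kept its call.

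Growth factor pathways had calls at their ligands, inhibitors and feedback genes. For the Tgf-beta, activin and BMP family, 14 of 44 were called higher (31.8%) and 1 lower, the median was 0.67 (0.43 without the lens-rich pair), and 6 kept their call. Grem1, a secreted antagonist of BMPs, was at 0.783, 3.95 and 1.62 CPM in the PBS libraries and 299, 264 and 116 CPM in the vesicle libraries (log2 fold change 6.72 ± 0.75, adjusted p = 0.0072). Its PBS libraries differed among themselves, with library 2 highest, and its log2 fold change was 7.53 without that library. Without the lens-rich pair its adjusted p was 0.0859, in a range of 2.0e-18 to 0.086 over the 14 alternatives. Id2, a target of BMP signalling, rose from 43.1, 50.3 and 51.9 CPM to 141, 179.9 and 108 CPM (log2 fold change 1.56 ± 0.18, adjusted p = 0.0012). Acvr2b, an activin receptor, rose from 6.33, 6.69 and 6.73 CPM to 14.8, 15.2 and 10.7 CPM (log2 fold change 1.04 ± 0.19, adjusted p = 0.0057). The count of this list was 7 without PBS library 2, 7 without vesicle library 1, 9 without vesicle library 2 and 7 without the lens-rich pair. Among 36 genes of fibroblast growth factor signalling and MAP kinase feedback, 6 were called higher and 3 lower, and 4 kept their call. The count higher was 10 with DESeq2, 3 without PBS library 2, vesicle library 1 or the lens-rich pair, and 2 without vesicle library 2, and the count lower was 5 without vesicle library 3. Dusp16, a phosphatase of stress kinases, rose from 18.2, 17.3 and 15.3 CPM to 42.7, 39.8 and 38.5 CPM (log2 fold change 1.25 ± 0.12, adjusted p = 0.00021). Dusp14 fell from 26.6, 27.9 and 25.6 CPM to 16.2, 14.98 and 18.2 CPM (log2 fold change -0.70 ± 0.13, adjusted p = 0.0053), and Spry3, a Sprouty inhibitor, fell from 50.4, 44.3 and 36.5 CPM to 21.3, 22.7 and 23.0 CPM (log2 fold change -0.97 ± 0.13, adjusted p = 0.0016). The dual-specificity phosphatases thus differed in both directions. Fgf2, which injured retina is known to make, was called higher (from 44.4, 14.5 and 29.9 CPM to 162, 146 and 124 CPM, log2 fold change 2.28 ± 0.42, adjusted p = 0.024), but its call was lost without PBS library 3 (adjusted p = 0.0773), vesicle library 1 (adjusted p = 0.0866), vesicle library 2 (adjusted p = 0.0929), vesicle library 3 (adjusted p = 0.0573) or the lens-rich pair (adjusted p = 0.0633), in a range of 1.9e-05 to 0.093.

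In the Notch pathway, which maintains Müller glia, 4 of 24 were called higher and 2 lower, and 2 higher without the lens-rich pair. Hey2, a target gene, rose from 19.3, 16.96 and 11.1 CPM to 41.98, 37.5 and 27.8 CPM (log2 fold change 1.18 ± 0.23, adjusted p = 0.0094). Rbpj, the DNA-binding partner of Notch, rose from 29.4, 25.4 and 27.8 CPM to 40.8, 41.1 and 39.0 CPM (log2 fold change 0.55 ± 0.11, adjusted p = 0.0077). Lfng, which adds sugar to Notch, rose from 6.27, 7.90 and 7.27 CPM to 23.6, 29.0 and 12.3 CPM (log2 fold change 1.598 ± 0.30, adjusted p = 0.0089), and its call was lost without the lens-rich pair (adjusted p = 0.0626, range 5.0e-07 to 0.063). Those 3 kept their call in each fit without 1 library, and the 2 lower did not. Of 40 Wnt pathway genes 3 were called higher and 1 lower, with 7 higher by DESeq2, 9 without vesicle library 3, and 1 without PBS library 2, vesicle library 1, vesicle library 2 or the lens-rich pair, and Fzd7, a Wnt receptor, was the one that kept its call (from 2.15, 3.47 and 4.45 CPM to 9.17, 12.8 and 7.59 CPM, log2 fold change 1.55 ± 0.31, adjusted p = 0.0086). Genes induced by glucocorticoids were called in both directions. Of 19 tested, 6 were called higher and 2 lower, with a median of -0.05 that was 0.05 without vesicle library 1, -0.14 without vesicle library 2 and -0.12 without the lens-rich pair. Sgk1, a kinase and classic target, fell from 1066, 973 and 909 CPM to 613, 576 and 697 CPM (log2 fold change -0.64 ± 0.11, adjusted p = 0.0043), and Nfkbia, the inhibitor of NF-kB, rose from 24.9, 27.8 and 25.2 CPM to 116, 117 and 84.0 CPM (log2 fold change 2.02 ± 0.14, adjusted p = 5.9e-05). Of the 8 called genes, Lcn2, Mt2, Angptl4 and Ddit4 belong to other lists above as well. The circadian clock had 7 of 24 genes called lower (29.2%) and 2 higher. Rorb, a nuclear receptor needed for rod development, fell from 235, 235 and 199.6 CPM to 116, 108 and 133 CPM (log2 fold change -0.91 ± 0.11, adjusted p = 0.00085). Bhlhe40, a repressor in the clock that inflammation also induces, rose from 19.3, 30.9 and 32.3 CPM to 69.1, 82.2 and 52.1 CPM (log2 fold change 1.30 ± 0.24, adjusted p = 0.011). Those 2 kept their call. The others called lower, Arntl, Dbp, Bhlhe41, Nr1d1, Per3 and Ciart, did not, and the count of 7 was 2 without PBS library 2, 3 without vesicle library 1, 2 without vesicle library 2 and 3 without the lens-rich pair. No source used here gives the hour of tissue collection.

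Most estimates for genes of neuronal signalling were below 0. All tested genes had 5.19% called lower, and the share was 11.1% for sodium and calcium channels and 7.58% for potassium channels. It was 10.2% for synaptic vesicle genes, 18.8% for ionotropic glutamate receptors and 3.23% for GABA and glycine receptors and transporters. Voltage-gated sodium and calcium channel genes had 4 of 36 called lower (11.1%), 33 of 36 estimates below 0 and a median of -0.25, which was -0.41 without PBS library 1 or vesicle library 3 and -0.14 without PBS library 2. Cacna1f, the calcium channel at photoreceptor synapses, was at 98.4, 114 and 113 CPM in the PBS libraries and 79.4, 62.7 and 71.6 CPM in the vesicle libraries (log2 fold change -0.61 ± 0.11, adjusted p = 0.0058). Cacna2d3, an auxiliary subunit, fell from 56.3, 57.5 and 42.3 CPM to 31.0, 24.8 and 34.2 CPM (log2 fold change -0.79 ± 0.16, adjusted p = 0.0086), and its call was lost without the lens-rich pair (adjusted p = 0.0735, range 0.00011 to 0.074). These 2 kept their call without each library, and the count of 4 was 2 without PBS library 2, vesicle library 2 or the lens-rich pair. Potassium channels had 5 of 66 called lower and 3 higher and a median of -0.29, or -0.49 without vesicle library 3. Kcnj14, an inward rectifier, fell from 525, 549.6 and 535 CPM to 347, 311 and 361 CPM (log2 fold change -0.66 ± 0.09, adjusted p = 0.0018). Kcng4, a modifier subunit, rose from 9.01, 9.73 and 7.99 CPM to 21.2, 17.6 and 14.3 CPM (log2 fold change 0.99 ± 0.18, adjusted p = 0.0057). Counts lower for potassium channels were 11 without PBS library 1, 9 without vesicle library 3 and 3 without PBS library 2, vesicle library 1 or vesicle library 2. They were 10 with upper-quartile scaling and 11 with DESeq2, and the count higher was 1 without any one of PBS library 1, PBS library 2, vesicle library 1 and vesicle library 2. Synaptic vesicle and release genes had 5 of 49 called lower, 40 of 49 estimates below 0 and a median of -0.31. The 5 all lost their call without PBS library 2, and likewise without vesicle library 1 or vesicle library 2, and the count was 2 without PBS library 3, 10 without vesicle library 3 and 9 with DESeq2. The ionotropic glutamate receptor calls (Gria2, Grin1 and Gria4, 3 of 16 lower, median -0.28, or -0.17 without PBS library 2 and -0.46 without vesicle library 3) were likewise lost in the fits without PBS library 2, vesicle library 1 or vesicle library 2. Retinal cell markers as a whole had a median of -0.39, and whether these lists follow the markers was not tested.

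Cilium genes, which serve the photoreceptor outer segment, had 7 of 84 called lower and 2 higher. Arl3, a small GTPase that releases lipidated cargo in the cilium, was at 368, 329 and 299 CPM in the PBS libraries and 233, 197 and 220.2 CPM in the vesicle libraries (log2 fold change -0.62 ± 0.11, adjusted p = 0.0049). Cep164, of the basal body, fell from 43.4, 49.98 and 52.98 CPM to 33.4, 25.5 and 32.8 CPM (log2 fold change -0.67 ± 0.13, adjusted p = 0.0087), and Tulp1, which carries membrane proteins to the outer segment, fell from 728, 725 and 738 CPM to 576, 461 and 522 CPM (log2 fold change -0.49 ± 0.10, adjusted p = 0.012). Ift57, of intraflagellar transport, rose from 27.2, 25.4 and 29.7 CPM to 67.2, 74.3 and 47.9 CPM (log2 fold change 1.20 ± 0.16, adjusted p = 0.0014). These 4 kept their calls. The count lower was 3 without PBS library 2, 4 without vesicle library 1, 3 without vesicle library 2 or the lens-rich pair, and 11 with upper-quartile scaling. The count higher was 5 without PBS library 1 and 4 without the lens-rich pair. Of 44 amino acid transporters 5 were called lower and 4 higher, of which 2 lower and 1 higher kept their call. Slc38a3, a glutamine carrier of Müller glia, fell from 365, 384 and 361 CPM to 260.3, 213 and 244 CPM (log2 fold change -0.63 ± 0.10, adjusted p = 0.0029), and Slc6a6, the taurine carrier on which photoreceptors depend, fell from 359, 418 and 474 CPM to 277, 241 and 285 CPM (log2 fold change -0.64 ± 0.12, adjusted p = 0.0068). Each vesicle library was below each PBS library in both. Among neuropeptides Calca, which encodes calcitonin and CGRP, rose from 4.63, 4.13 and 4.93 CPM to 15.9, 11.6 and 11.3 CPM (log2 fold change 1.503 ± 0.21, adjusted p = 0.0015), and of 4 called neuropeptide genes it was the 1 that kept its call. Of 63 axon guidance genes 4 were called higher and 6 lower, and the 2 that kept their call were Sema4a (log2 fold change 1.61 ± 0.28, adjusted p = 0.005), a semaphorin of pigment epithelium and leukocytes, and Plxna2 (log2 fold change 0.83 ± 0.15, adjusted p = 0.005), a semaphorin receptor. Tight junction and barrier genes gave 1 call higher and 1 lower of 24 tested (4.17% each), below the shares of all tested genes. Jam2, a junction protein, fell from 140.3, 132 and 132 CPM to 84.7, 88.6 and 103 CPM (log2 fold change -0.55 ± 0.10, adjusted p = 0.0057). Marveld3, another, rose from 16.1, 11.6 and 15.5 CPM to 40.1, 32.7 and 27.1 CPM (log2 fold change 1.21 ± 0.18, adjusted p = 0.0022). The call of Jam2 was lost without the lens-rich pair (adjusted p = 0.0527, range 0.00012 to 0.053).

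Large families of nuclear proteins gave fewer calls than genes in general. Of 348 zinc finger protein genes, 4 were called higher and 6 lower, and of 71 splicing factors, 2 and 3. Zfp36, which destabilises cytokine mRNAs, rose from 2.55, 2.49 and 5.53 CPM to 13.6, 17.1 and 10.6 CPM (log2 fold change 1.96 ± 0.34, adjusted p = 0.0053), with an adjusted p of 0.0526 without the lens-rich pair (range 6.8e-08 to 0.053). Zfp444 fell from 83.7, 93.5 and 81.3 CPM to 53.3, 39.3 and 48.4 CPM (log2 fold change -0.87 ± 0.12, adjusted p = 0.0017). Ptbp3, a repressor of exons, rose from 41.4, 35.0 and 40.2 CPM to 79.5, 82.1 and 60.01 CPM (log2 fold change 0.93 ± 0.13, adjusted p = 0.0019). Esrp1, another splicing factor, fell from 5.61, 5.35 and 4.99 CPM to 0.637, 0.822 and 1.05 CPM (log2 fold change -2.66 ± 0.30, adjusted p = 0.00055) and kept its call. The groups did not overlap for these named members. The zinc finger calls lower were 3 without vesicle library 2, 10 without vesicle library 3 and 14 with upper-quartile scaling, and those higher were 2 without PBS library 2, vesicle library 1 or the lens-rich pair.

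Long noncoding RNAs had the opposite balance from coding genes. Of 1194 tested, 60 were called higher (5.03%) and 95 lower (7.96%), with a median of -0.26. Coding genes numbered 14243, with 1587 higher (11.1%), 706 lower (4.96%) and a median of -0.002. Of 10 microRNA host or neighbour RNAs examined, 3 were called lower (Rncr4, Mir124-2hg and Mir670hg) and 1 higher (Mir142hg), and 6 were not called, among them Mir9-3hg (log2 fold change -0.14, adjusted p = 0.88), the host of another neuronal microRNA. MicroRNAs are short RNAs that pair with target mRNAs through bases 2 to 8, the seed, and their precursors are cut from longer transcripts, which these libraries can show while the mature forms are not measured. Rncr4, a retinal RNA that lies in the GRCm38 annotation at chr6:30172893-30175126 on the plus strand, is next to the Mir183, Mir96 and Mir182 genes of sensory cells on the minus strand. Their mature sequences in RefSeq (GRCm38.p6), with the seed in capitals, show why they are treated as 1 family, since the seeds of miR-182 and miR-96 share their first 6 bases and the seed of miR-183 differs from that of miR-96 in its first base. They lie at chr6:30165962-30165986, chr6:30169506-30169528 and chr6:30169711-30169732:
mmu-miR-182-5p: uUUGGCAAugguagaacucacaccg
mmu-miR-96-5p: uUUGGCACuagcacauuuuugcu
mmu-miR-183-5p: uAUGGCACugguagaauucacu

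Rncr4 was at 32.0, 43.3 and 41.2 CPM in the PBS libraries and 18.9, 13.1 and 15.003 CPM in the vesicle libraries (log2 fold change -1.31 ± 0.17, adjusted p = 0.0011). Mir124-2hg, the host of 1 copy of miR-124, the main microRNA of neurons, was at 1124, 1063 and 892 CPM in the PBS libraries and 485, 444 and 571 CPM in the vesicle libraries (log2 fold change -1.04 ± 0.13, adjusted p = 0.00089). Mir670hg fell from 50.3, 67.4 and 59.1 CPM to 34.5, 23.6 and 35.9 CPM (log2 fold change -0.91 ± 0.17, adjusted p = 0.0083). All 3 kept their call, and each vesicle library was below each PBS library. The host of another copy, Mir124a-1hg, was at 518, 454 and 433 CPM in the PBS libraries and 428, 335 and 348 CPM in the vesicle libraries (log2 fold change -0.34 ± 0.12, adjusted p = 0.089) and was not called, although its groups did not overlap. Of the 10 tested host and neighbour RNAs with such names, 1 was called higher: Mir142hg, host of the leukocyte microRNA miR-142. It was at 0.261, 0.122 and 0.481 CPM in the PBS libraries and 1.08, 1.71 and 0.741 CPM in the vesicle libraries, close to the counting floor of 3 counts (log2 fold change 1.997 ± 0.57, adjusted p = 0.042). The call was lost without PBS library 1 (adjusted p = 0.106), PBS library 2 (adjusted p = 0.159), vesicle library 1 (adjusted p = 0.103), vesicle library 2 (adjusted p = 0.171) or the lens-rich pair (adjusted p = 0.226), in a range of 0.029 to 0.23. Its mature forms in RefSeq (GRCm38.p6, chr11:87756867-87756887 and chr11:87756903-87756925, plus strand) carry other seeds, shown in capitals:
mmu-miR-142a-5p: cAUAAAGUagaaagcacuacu
mmu-miR-142a-3p: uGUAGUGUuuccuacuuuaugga

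Other noncoding RNAs were lower as well. Vax2os, antisense to the eye transcription factor Vax2, was at 280.1, 368 and 313 CPM in the PBS libraries and 209, 144 and 179.5 CPM in the vesicle libraries (log2 fold change -0.85 ± 0.15, adjusted p = 0.0056). Pitpnm2os2 fell from 112, 100.2 and 93.9 CPM to 44.1, 25.2 and 28.8 CPM (log2 fold change -1.64 ± 0.20, adjusted p = 0.0019). Meg3, an imprinted RNA of neurons, fell from 56.3, 97.2 and 77.6 CPM to 44.0, 34.8 and 41.4 CPM (log2 fold change -0.94 ± 0.19, adjusted p = 0.015). PBS library 2 was the highest of its group for Vax2os and Meg3, and the groups did not overlap. Antisense RNAs cannot be told apart from their partners where the strand is not known. Snhg6, a host of small nucleolar RNA, rose from 33.0, 37.0 and 41.3 CPM to 59.0, 65.6 and 57.0 CPM (log2 fold change 0.71 ± 0.11, adjusted p = 0.0032).

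Abundant genes outside all lists gave another view of the whole tissue. A rule set after their values were seen took genes of at least 50 CPM with PBS and at least a 2-fold change, and found 23 higher, 18 of them with a kept call, and 8 lower, 6 of them kept. Pdpn, podoplanin, a membrane protein that reactive glia and pigment epithelium express, was at 210.3, 134 and 158 CPM in the PBS libraries and 550.3, 718 and 426 CPM in the vesicle libraries (log2 fold change 1.75 ± 0.24, adjusted p = 0.004). Ipo5, an importer of proteins into the nucleus, rose from 270.3, 163 and 179 CPM to 768, 783 and 473 CPM (log2 fold change 1.72 ± 0.27, adjusted p = 0.0083). Agtpbp1, which shortens the polyglutamate tails of tubulin and is needed for photoreceptor survival, rose from 317, 194 and 250.3 CPM to 926, 882 and 630.1 CPM (log2 fold change 1.68 ± 0.21, adjusted p = 0.0022). PBS library 2 was the lowest and PBS library 1 the highest of the PBS group for these 3, and vesicle library 3 the lowest of the vesicle group. Naa35, the gene next to Agtpbp1, rose as well (from 95.04, 73.8 and 77.4 CPM to 195, 184 and 152 CPM, log2 fold change 1.11 ± 0.13, adjusted p = 0.00066). Arl6, a GTPase of ciliary transport, rose from 791, 427 and 569.6 CPM to 1706, 1596 and 1302 CPM (log2 fold change 1.36 ± 0.22, adjusted p = 0.007), and Gpsm2, which orients cell division, rose from 790.0, 604 and 677 CPM to 1582, 1443 and 1181 CPM (log2 fold change 1.02 ± 0.14, adjusted p = 0.0014). Nme2, a nucleoside diphosphate kinase, rose from 71.2, 68.5 and 69.5 CPM to 249.9, 251 and 162 CPM (log2 fold change 1.67 ± 0.16, adjusted p = 0.00039), with PBS libraries that were nearly equal. Sulf1, which trims heparan sulfate, rose from 79.8, 60.8 and 66.9 CPM to 170.2, 229 and 131 CPM (log2 fold change 1.36 ± 0.21, adjusted p = 0.0053). Mcl1, which holds back apoptosis, rose from 113, 91.8 and 102 CPM to 223, 250.2 and 197 CPM (log2 fold change 1.12 ± 0.12, adjusted p = 0.00036). For the last 3 of these genes vesicle library 3 was again lowest among vesicle libraries. Summed markers of pigment epithelium, which expresses Pdpn, overlapped between groups (1075 to 3074 and 2292 to 4428 CPM). Of 18 such markers 17 had estimates above 0, with a median log2 fold change of 1.09, and none was called. Their part in the rise of Pdpn was not tested.

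Of abundant genes that were lower, Rabgef1, an activator of endosomal Rab5, was at 466, 467 and 417 CPM in the PBS libraries and 223, 173 and 229.8 CPM in the vesicle libraries (log2 fold change -1.11 ± 0.12, adjusted p = 0.00047). Plpp2, a lipid phosphatase, fell from 80.7, 82.6 and 75.8 CPM to 34.0, 29.1 and 44.3 CPM (log2 fold change -1.15 ± 0.15, adjusted p = 0.00098). Fam3c, a secreted factor, fell from 474, 502 and 503 CPM to 236, 202 and 306 CPM (log2 fold change -0.99 ± 0.14, adjusted p = 0.0019). Polg2, the accessory subunit of the mitochondrial DNA polymerase, fell from 112, 103 and 96.1 CPM to 50.4, 42.3 and 63.2 CPM (log2 fold change -0.996 ± 0.14, adjusted p = 0.0019). Mif, macrophage migration inhibitory factor, fell from 684, 814 and 618 CPM to 383, 340.0 and 397 CPM (log2 fold change -0.92 ± 0.12, adjusted p = 0.0013). Fam3c, Polg2 and Mif fell by less than 2-fold and so lie outside the rule above. Besides Rabgef1 and Plpp2, the 8 lower genes of that rule were Mir124-2hg, Pitpnm2os2, Polr2j, Strip2, 5430419D17Rik and Caly. In Rabgef1, Plpp2, Fam3c, Polg2 and Mif vesicle library 2 was the lowest and vesicle library 3 the highest of its group, below each PBS library. Some falls were proportionally larger at lower levels. Insm1, a transcription factor of neuroendocrine and retinal precursor cells, fell from 24.2, 24.8 and 20.9 CPM to 10.96, 6.38 and 7.78 CPM (log2 fold change -1.48 ± 0.20, adjusted p = 0.0014). Dleu7 fell from 13.5, 16.4 and 17.9 CPM to 5.54, 3.98 and 6.05 CPM (log2 fold change -1.62 ± 0.21, adjusted p = 0.0011), and Kcne1l, a potassium channel subunit, fell from 4.18, 6.81 and 4.39 CPM to 1.53, 1.45 and 1.48 CPM (log2 fold change -1.78 ± 0.30, adjusted p = 0.004). Each of these kept its call.

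**Figure D5:**
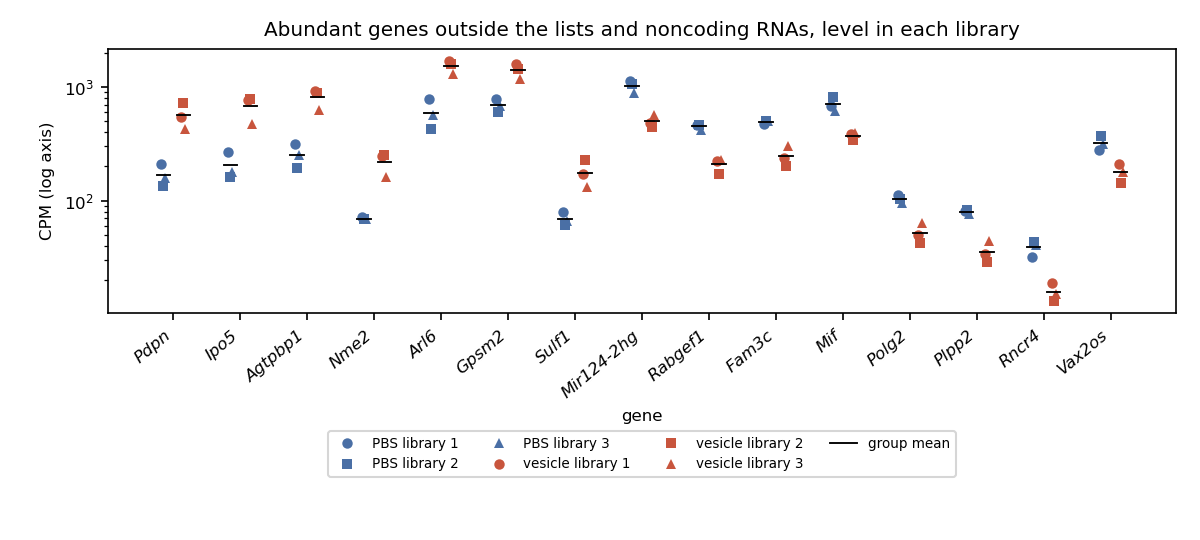
Level of 15 abundant or noncoding genes outside the lists in each library (CPM, log axis), with 1 point per library and a bar at the group mean. The 7 genes on the left rise and the 8 on the right fall with vesicles, with no overlap between groups, and vesicle library 3 (triangle) is the lowest of its group for each of the 7 that rise.

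Among the largest rises outside the lists were genes of myeloid cells that the immune list did not hold. Mefv, which encodes the inflammasome sensor pyrin, was at 0.131, 0.122 and 0.541 CPM in the PBS libraries and 19.2, 16.5 and 11.7 CPM in the vesicle libraries (log2 fold change 5.84 ± 0.45, adjusted p = 0.00012, and a log2 fold change of 6.88 without PBS library 3). Cytip, which regulates leukocyte adhesion, rose from 0.587, 0.365 and 0.841 CPM to 21.0, 22.8 and 12.2 CPM (log2 fold change 4.94 ± 0.36, adjusted p = 8.3e-05). Rab44, a large GTPase of leukocyte granules, rose from 0.261, 0.182 and 0.541 CPM to 9.87, 10.2 and 6.85 CPM (log2 fold change 4.73 ± 0.39, adjusted p = 0.00012). Mcoln2, a lysosomal cation channel, rose from 0.131, 0.0608 and 0.0601 CPM to 7.52, 10.4 and 4.51 CPM (log2 fold change 6.37 ± 0.52, adjusted p = 0.00012), with few counts in the PBS libraries. Tarm1, a receptor of granulocytes, had 1 count in all PBS libraries together and 269 in all vesicle libraries, giving a CPM ratio of 273 with a 95% exact counting interval of 48.6 to 10819 (adjusted p = 0.0002). All were below 1 CPM in the PBS libraries, and in every vesicle library they were well above the counting floor. Ptx3, a soluble pattern recognition protein, rose from 2.68, 3.16 and 3.36 CPM to 127, 224 and 82.1 CPM (log2 fold change 5.55 ± 0.49, adjusted p = 0.0022). Lrg1, a glycoprotein that acts on retinal vessels, rose from 0.326, 0.243 and 0.661 CPM to 19.2, 22.6 and 8.15 CPM (log2 fold change 5.31 ± 0.52, adjusted p = 0.00067). Pilrb1 rose from 0.131, 0 and 0.120 CPM to 6.75, 7.40 and 5.19 CPM (log2 fold change 6.16 ± 0.52, adjusted p = 0.00012), but it and Pilrb2 are near-identical copies, so their single values are uncertain. The part of leukocyte numbers in these rises was not tested.

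Promoters of the genes were searched for 4 short motifs in the 250 bases before the transcription start in RefSeq (GRCm38.p6), on both strands, for the 11864 tested genes with a window. The form of GGG, any 3 bases and TTCC, which NF-kB binds, was present in 6.15% of all windows, in 9.13% of the 1293 of genes called higher, in 7.05% of the 624 of genes called lower and in 10.5% of the 427 called at least 4-fold higher. The form TTCNNNGAA, which STAT proteins bind, was in 7.24%, 11.1%, 6.57% and 13.3% of the same groups. The core TGCNCNC of metal response elements was in 57.4%, 54.1%, 61.2% and 46.4%, and the core TGACNNNGC of antioxidant response elements in 14.0%, 14.5%, 14.4% and 13.1%. Matches of different motifs may overlap. Base composition differed between the groups, with a median GC content of 59.6% in all windows, 58.0% in those called higher, 58.4% in those called lower and 52.0% in those at least 4-fold higher, and its part in the shares was not tested. Of 45 named genes outside the immune list with a window, a kept call and at least a 4-fold rise, 4 held the first form and 6 the second. The windows below belong to such genes with strong rises, with the letters of 1 form in capitals, written 5′ to 3′ on the strand of the gene. Lrg1 (chr17:56121947-56122196, minus strand) holds the NF-kB form. Fas (chr19:34290409-34290658, plus strand), Cstdc4 (chr16:36183962-36184211, plus strand), Steap4 (chr5:7960222-7960471, plus strand) and Tgm1 (chr14:55713493-55713742, minus strand) hold the STAT form. Steap4 holds the NF-kB form too, on the opposite strand, and that match is left in lower case:
Lrg1: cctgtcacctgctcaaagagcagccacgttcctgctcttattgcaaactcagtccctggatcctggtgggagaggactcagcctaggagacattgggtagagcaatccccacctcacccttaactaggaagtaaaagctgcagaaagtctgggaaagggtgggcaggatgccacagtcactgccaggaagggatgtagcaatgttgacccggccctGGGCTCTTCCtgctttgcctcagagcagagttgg
Fas: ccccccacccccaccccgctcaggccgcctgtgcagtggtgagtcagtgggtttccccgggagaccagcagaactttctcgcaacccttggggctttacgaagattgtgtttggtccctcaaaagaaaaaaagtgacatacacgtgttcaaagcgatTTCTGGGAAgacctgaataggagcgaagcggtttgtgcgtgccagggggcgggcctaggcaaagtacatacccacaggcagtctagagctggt
Cstdc4: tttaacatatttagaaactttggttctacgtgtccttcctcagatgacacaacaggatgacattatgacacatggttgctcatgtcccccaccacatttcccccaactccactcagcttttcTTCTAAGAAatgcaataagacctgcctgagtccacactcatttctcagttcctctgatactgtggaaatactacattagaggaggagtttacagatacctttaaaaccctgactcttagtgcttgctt
Steap4: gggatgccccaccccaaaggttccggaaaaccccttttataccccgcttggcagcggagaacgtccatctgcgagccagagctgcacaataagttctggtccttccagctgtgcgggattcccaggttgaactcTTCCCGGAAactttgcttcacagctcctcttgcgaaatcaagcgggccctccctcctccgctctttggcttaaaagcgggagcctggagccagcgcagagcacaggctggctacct
Tgm1: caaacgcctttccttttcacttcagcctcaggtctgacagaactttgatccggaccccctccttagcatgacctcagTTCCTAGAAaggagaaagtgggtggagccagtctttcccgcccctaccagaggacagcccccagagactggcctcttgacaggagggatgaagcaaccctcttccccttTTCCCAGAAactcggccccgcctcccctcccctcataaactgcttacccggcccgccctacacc

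Tgm1, a transglutaminase of surface epithelium, has 2 matches in this window and rose from 0.653, 1.16 and 2.70 CPM to 18.3, 25.3 and 12.3 CPM (log2 fold change 3.62 ± 0.51, adjusted p = 0.0046), with a log2 fold change of 4.34 without PBS library 3 and 3.00 without the lens-rich pair. A match is only a description of the letters, and binding was not measured.

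Genes were finally grouped by the stem of their symbol, 245 stems with at least 8 tested members each. Beside stems of immune genes, those with the largest shares called higher (among stems with 3 or more such calls) were Mmp, with 8 of 15 metalloproteinases (53.3%), and Parp, with 6 of 12. The Parp genes are Parp1, Parp3, Parp9, Parp10, Parp12 and Parp14, which add ADP-ribose to proteins, the last 4 being known as interferon-induced. The largest share called lower among stems with 3 or more such calls was that of Pla, with 4 of 14 (28.6%), the phospholipases Pla2g3, Pla2g5 and Pla2g7 and the receptor Pla2r1, beside 2 called higher. Ndufb subunits of the first respiratory complex followed with 3 of 11 (27.3%). Zdhhc palmitoyl transferases had 4 of 21 called lower (19.0%) and 1 higher. The stems were ranked by these shares, so the shares are a description.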

How the data were processed

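Per the labels, Trizol was used for RNA and a NEBNext Ultra RNA kit for the libraries. The authors deposited a table of raw read counts per gene for the 6 retina libraries. Per the submitters' processing notes, FastQC 0.11.8, HISAT2 2.0.5, featureCounts 1.5.0-p3 and limma were used. No source used here names the genome build of the counts, so coordinates are those of the reference annotation only (GRCm38).

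Of 32285 genes, 15440 passed edgeR's filterByExpr (minimum count 10). Counts were scaled by TMM and fitted with edgeR 4.0.16 in R 4.3.3 (robust quasi-likelihood F test, treatment as the only term, 4 residual degrees of freedom). P-values are edgeR's, adjusted by Benjamini-Hochberg over all tested genes, with a threshold of 0.05, and errors are standard errors. Alternatives used limma 3.58.1 (voom) and DESeq2 1.42.0, and lists, motifs and plots were made in Python 3.11.15 with pandas 2.3.3 and matplotlib 3.10.9. The fit was tested on simulated counts that did not hold the differences in lens mRNA between libraries. At a planted log2 fold change of 1 it recovered 80.0% of rises, and at -1 it recovered 58.0% of falls. At 2 and -2 it recovered 100% and 98.0%, and it called 0.0466% of unchanged genes. With 3 libraries against 3, an exact permutation test could not go below p = 0.1 and was not used.

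The compared libraries and the gene lists were chosen with earlier results of these data known, and some list members came from such results. Genes were named by a rule: up to 4 called members per list in order of p (non-overlapping groups, at least 1 CPM in the higher group), the 15 largest rises and 15 largest falls outside the lists (at least 5 CPM), the 10 largest differences in CPM each way, and small lists in full. Named outside the rule, after their values were seen, were Actb, Agtpbp1, Bdnf, Ciart, Crem, Dbp, Fam3c, Fgf2, Flna, Fth1, Hilpda, Hk2, Hp, Hspa5, Ipo5, Ldha, Mcl1, Meg3, Mif, Mmp9, Mmp14, Myh9, Naa35, Nme2, Nr1d1, Oaz1, Pdpn, Per3, Pkm, Plat, Plaur, Plpp2, Polg2, Prdx1, Rabgef1, Sgk1, Slc16a3, Slc39a10, Slc39a14, Snhg6, Steap4, Sulf1, Tmsb10, Tulp1, Txnrd1, Vax2os, Xbp1 and the microRNA host genes.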

Additional observations from a re-analysis of the deposited data

How the results depend on the processing

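Fits with no filter, median-of-ratios or upper-quartile scaling, DESeq2, limma-voom, or lens genes taken out first gave between 2276 and 2964 calls, within 1.5 times the 2449 reported. Without the lens-rich pair there were 1420 calls, 1058 higher and 362 lower, and 189 and 53 among programme genes. Leaving out 1 library at a time gave 1328 to 2909 calls, 1048 to 2010 higher and 277 to 899 lower, with 181 to 351 higher and 40 to 142 lower among programme genes. The cause of these differences in the number of calls was not tested. None of the 308 called genes examined singly changed direction in the 14 alternatives run. Groups did not overlap in 2446 of all 2449 called genes, so a change of direction was hardly possible. With vesicle library 3 left out 298 of the 308 remained called, against 242 without PBS library 2 and 217 without the lens-rich pair. With the replicate number as a block, 524 genes were called lower in place of 801, 1919 in all. The numbers pair the libraries in name only: deviations of same-numbered libraries correlated at 0.18, -0.19 and -0.06, and not every library correlated best with its own number. Scalings moved the median log2 fold change of all genes by 0.05 or less. The counts limit low genes most, since 3 counts are 0.180 to 0.196 CPM, and the spread between libraries (coefficient of variation 0.203) was not split into biological and technical parts.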
